A study of Mus musculus with 3 samples.

Results

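The potassium and HCN channel genes were taken as every gene of the mouse retina matrix whose symbol starts with Kcn or Hcn followed by a letter or digit, without Kcnj10, the inward rectifier gene of glia. The rule found 87 of 18545 genes, and 73 of them had at least 50 unique molecular identifiers (UMIs, 1 per captured transcript) over the whole matrix. The other 14 had between 12 and 45 UMIs and are not described one by one. The members are 83 genes of channel subunits or their partners and 4 noncoding RNAs that share a symbol stem with a channel gene. Single-cell RNA sequencing was performed on retinas of dark-reared mice aged 8 weeks, dissociated with papain and run on a droplet system that counts transcripts near their 3′ end. There were 3 groups with 1 pooled library each. The wild-type (WT) group was C57BL/6J mice on base chow. The rd10-vehicle group was rd10 mice, whose Pde6b gene for a rod phosphodiesterase subunit carries a point mutation, on the same base chow. The rd10-TMB group was rd10 mice on chow with tamsulosin, an alpha-1 adrenergic blocker, metoprolol, a beta-1 adrenergic blocker, and the dopamine receptor agonist bromocriptine. The labels give 4 pooled mice per group, while the study's text gives fewer for the rd10 groups. The rd10 mice were female and the WT pool held both sexes, so sex, library and genotype cannot be told apart between WT and rd10.

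Potassium channels let potassium leave or enter the cell and set the resting voltage, and voltage-gated ones (Kv) also shape how fast a neuron responds and recovers. HCN channels open on hyperpolarisation and pass an inward current of sodium and potassium. In photoreceptors of the retina, HCN channels and Kv channels that hold the silent subunit KCNV2 are known to shape the light response, and loss of KCNV2 in people causes a cone dystrophy with an abnormal rod response. In bipolar and amacrine cells, large-conductance (BK) channels and the Kv1 and Kv3 families shape release and firing, while glial and mural cells use 2-pore and inward rectifier channels.

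The 3 libraries held 4478 WT, 5952 rd10-vehicle and 4812 rd10-TMB cells, with 18882951, 37002532 and 29192530 UMIs. The authors' 21 clusters were used, and they were called by cell type only from marker genes. Between the libraries, 25 cell barcodes were shared by a pair of libraries. Levels are UMIs per 1000000 UMIs (CPM) of a class of cells in a library, with an exact Poisson 95% interval. A member was called higher or lower where its CPM differed by at least 1.5-fold and the exact 95% interval of the ratio was clear of 1, for genes that had 50 or more UMIs in the compared libraries together. No group had replicate libraries and nothing was tested, so the intervals cover counting error only and a call holds for these libraries, not for the conditions. Both contrasts, rd10-vehicle over WT and rd10-TMB over rd10-vehicle, use the rd10-vehicle library. All cells had been clustered with these genes among the rest, so levels between classes are a description.

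Promoter sequence was on hand for 61 of the 87 members, in 85 windows of the RefSeq promoter table (GRCm38.p6). Kcnv2 and Kcnj14 had no entry. The windows of Kcne2 and Kcng4 are printed because the calls of these members in cone-like and ON cone bipolar-like cells, held under every alternative that kept the 1.5-fold rule. Each is the 250 bases before an annotated start, 5′ to 3′ on the strand of the gene, and capitals mark TAATC or its reverse complement GATTA, the core recognised by photoreceptor and bipolar homeobox factors of the CRX and OTX type.
Kcne2, first start, chr16:92292139-92292388, plus strand: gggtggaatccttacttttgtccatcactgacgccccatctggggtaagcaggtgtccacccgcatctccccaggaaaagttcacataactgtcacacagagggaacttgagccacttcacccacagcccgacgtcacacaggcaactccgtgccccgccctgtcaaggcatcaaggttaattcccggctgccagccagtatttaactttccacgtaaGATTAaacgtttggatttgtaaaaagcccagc
Kcne2, other start, chr16:92295366-92295615, plus strand: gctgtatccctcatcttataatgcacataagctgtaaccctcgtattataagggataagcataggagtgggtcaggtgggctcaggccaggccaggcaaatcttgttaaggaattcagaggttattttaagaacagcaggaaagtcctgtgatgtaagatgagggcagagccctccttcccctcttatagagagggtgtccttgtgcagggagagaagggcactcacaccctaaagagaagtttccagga
Kcng4, chr8:119635681-119635930, minus strand: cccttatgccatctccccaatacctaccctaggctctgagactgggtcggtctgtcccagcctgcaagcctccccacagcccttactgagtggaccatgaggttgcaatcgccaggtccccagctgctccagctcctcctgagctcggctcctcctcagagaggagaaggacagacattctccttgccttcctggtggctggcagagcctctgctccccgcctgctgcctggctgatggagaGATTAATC
The first Kcne2 window held 1 match, 32 bases before the start, the other Kcne2 window none, and the Kcng4 window 2 matches that overlap. Either motif was in 19 of the 85 member windows (22.4%) and in 19.8% of all 32851 windows of this length, so the match is no mark of the members. A match is a description of these letters only.

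Each of the 12 classes with at least 20 cells in every library had its own leading channel genes. Of the 73 members, 36 had their highest mean CPM in a cluster with bipolar markers, 22 in amacrine-like cells, 5 in a photoreceptor class, 4 in a glial class and 6 in a vascular class. The 36 include 8 in cluster 10 and 7 in cluster 6, which carried bipolar markers but were given no class name, beside 9 in OFF cone, 8 in ON cone and 4 in rod bipolar-like cells. Lamp5 was among the 10 most enriched genes of both cluster 10 and the amacrine-like cluster 9. The part of amacrine cells in cluster 10 was not tested. The highest class was the same in all 3 libraries for 40 members, and 33 members stood at least 2-fold above the next class. Without the noncoding RNAs, the 83 other members summed to between 2450 and 2878 CPM in rod-like cells. In Müller glia-like cells they summed to between 586 and 697 CPM. That sum leaves out Kcnj10, which was among the 10 most enriched genes of these cells.

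**Figure D1:**
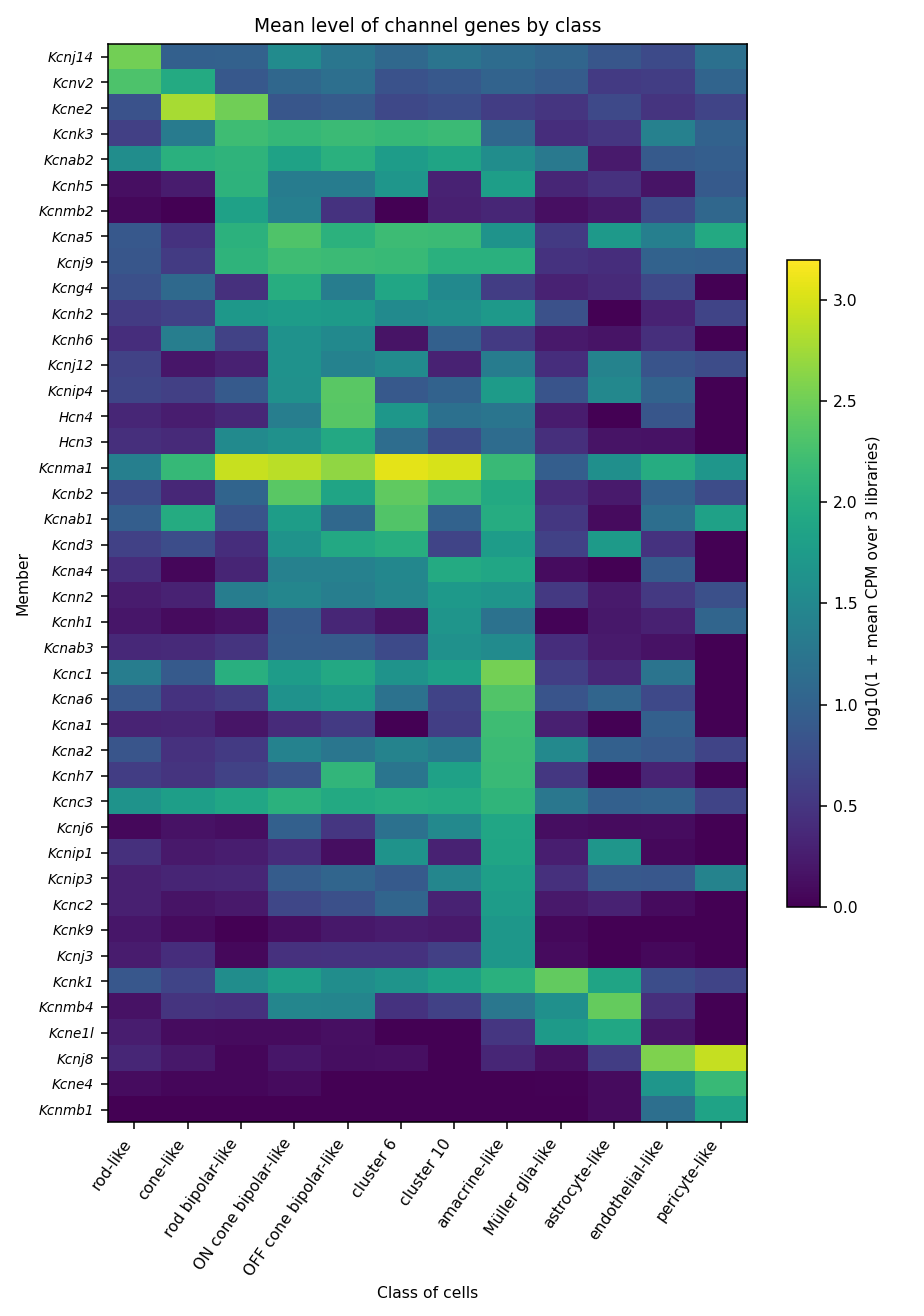
Mean CPM over the 3 libraries, as log10(1 + mean CPM), of 42 channel genes that reached a mean of 40 CPM in their highest class, by class of cells. Rows are ordered by the class with the highest level, and most genes are bright in 1 or a few neighbouring columns, such as Kcnj8 in pericyte-like cells and Kcnj14 in rod-like cells.

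Kcnv2 and Kcnj14 were the members described here that were highest in rod-like cells. Kcnv2, the silent Kv subunit gene on chromosome 19 at 27322061 to 27337179, measured 237 CPM (215 to 261) in WT, 144 (120 to 172) in rd10-vehicle and 228 (202 to 256) in rd10-TMB rod-like cells. The rd10-vehicle interval lay below both others, which overlapped each other. The log2 ratio was -0.71 (-1.02 to -0.43) for rd10-vehicle over WT and 0.65 (0.35 to 0.98) for rd10-TMB over rd10-vehicle. With each cell thinned to 1000 UMIs, a Kcnv2 UMI was seen in 20.1% (exact binomial interval 17.6 to 22.8%) of WT, 13.3% (10.4 to 16.7%) of rd10-vehicle and 20.4% (17.4 to 23.7%) of rd10-TMB rod-like cells, and before thinning in 29.1%, 19.2% and 30.0%. Thinning left out 226, 68 and 80 shallower cells. In rod bipolar-like cells, which should lack the gene, the thinned shares were 0.998%, 0.277% and 1.10%, at median depths of 5032, 3638 and 4310 UMIs against 1423, 1406 and 1536 in rod-like cells. Without the 5% of cells with the most UMIs the log2 ratio for rd10-TMB over rd10-vehicle was 0.58, under the 1.5-fold limit. Cone markers summed to 398, 1075 and 643 CPM in the rod-like cells of the 3 libraries, and their part in the Kcnv2 values was not tested. In cone-like cells Kcnv2 measured 89.1, 89.7 and 90.2 CPM, with log2 ratios of 0.00 (-0.31 to 0.33) and 0.01 (-0.27 to 0.29).

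Kcnj14, an inward rectifier gene, measured 346 CPM (319 to 374) in WT, 292 (257 to 330) in rd10-vehicle and 353 (321 to 387) in rd10-TMB rod-like cells and stood 9.8-fold above its next class in mean level. Its rd10-vehicle value was the lowest, and the log2 ratios of -0.24 (-0.46 to -0.03) and 0.27 (0.05 to 0.50) had intervals clear of 1-fold without reaching 1.5-fold. Kcnma1, the BK channel pore gene and chiefly a bipolar gene here, was called lower in rd10-vehicle rod-like cells, at 15.1 CPM (8.04 to 25.8, from 13 UMIs) against 31.1 (23.5 to 40.4) in WT, a call that was lost with the mean over cells. Of 9 members with enough UMIs for rd10-vehicle over WT in rod-like cells, 2 were called lower against 6.13% of all genes tested, and 0 higher against 4.48%. Of 7 for rd10-TMB over rd10-vehicle, 1 was called higher against 1.61% of all genes, and 0 lower against 2.49%. The median log2 ratio of the members was -0.26 and 0.16, beside -0.05 and 0.02 over all genes tested.

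Cone-like cells were marked by Kcne2, which encodes a small accessory subunit that is known to join Kv and HCN channels. Kcne2 measured 877 CPM (829 to 927) in WT, 448 (422 to 474) in rd10-vehicle and 463 (435 to 493) in rd10-TMB cone-like cells. Both rd10 libraries lay far below WT and overlapped each other. The log2 ratio for rd10-vehicle over WT was -0.97 (-1.09 to -0.85), from 1148 and 1250 UMIs, and that for rd10-TMB over rd10-vehicle was 0.05 (-0.07 to 0.17). Under the 12 alternatives that kept the 1.5-fold rule the first ratio stayed between -1.18 and -0.84 and the gene was called in each. A Kcne2 UMI was seen, after thinning to 1000 UMIs, in 58.6% (52.5 to 64.5%) of WT, 31.6% (27.7 to 35.8%) of rd10-vehicle and 33.2% (28.6 to 38.1%) of rd10-TMB cone-like cells, and before thinning in 87.8%, 58.9% and 64.6%. Thinning left out 5, 11 and 15 of these cells. In rod-like cells the thinned shares were 0.839%, 0.205% and 0.150%, with median depths of 1423, 1406 and 1536 UMIs against 5333, 4857 and 5548.5 in cone-like cells. Rod bipolar-like cells were the only other class of the 12 with a mean above 10 CPM, at 348 (322 to 375), 297 (277 to 319) and 317 (296 to 339) CPM, and the gene was not called there. Rod bipolar markers in cone-like cells summed to 181, 215 and 244 CPM, and their part in the Kcne2 values was not tested.

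Kcnk3, a 2-pore leak channel gene, was the member called higher in rd10-vehicle cone-like cells, at 21.4 CPM (16.2 to 27.9) against 9.82 (5.37 to 16.5) in WT, with 30.8 (23.9 to 39.2) in rd10-TMB. The call was lost with the mean over cells, where every cell has the same weight. The gene is chiefly a bipolar gene in these data, and the part of the rod bipolar markers just given was not tested. Kcnma1 in cone-like cells measured 105, 153 and 160 CPM with a log2 ratio of 0.54 (0.27 to 0.82) for rd10-vehicle over WT, under 1.5-fold. Of 12 members with enough UMIs in cone-like cells, 1 was called higher in rd10-vehicle over WT against 3% of all genes tested, and 1 lower against 3.48%. For rd10-TMB over rd10-vehicle, 0 of 12 were called higher against 1.17% of all genes and 0 lower against 1.71%, and no interval was clear of 1. The highest ratios there were Kcnk3 at 0.52 (-0.01 to 1.07) and the Kv beta subunit gene Kcnab1 at 0.11, and the lowest were the silent subunit gene Kcng4 at -0.72 (-1.69 to 0.12) and Kcnh6, a gene of the ERG potassium channel family, at -0.30. The median log2 ratio of the members was -0.14 and 0.05, beside -0.05 and 0.01 over all genes.

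**Figure D2:**
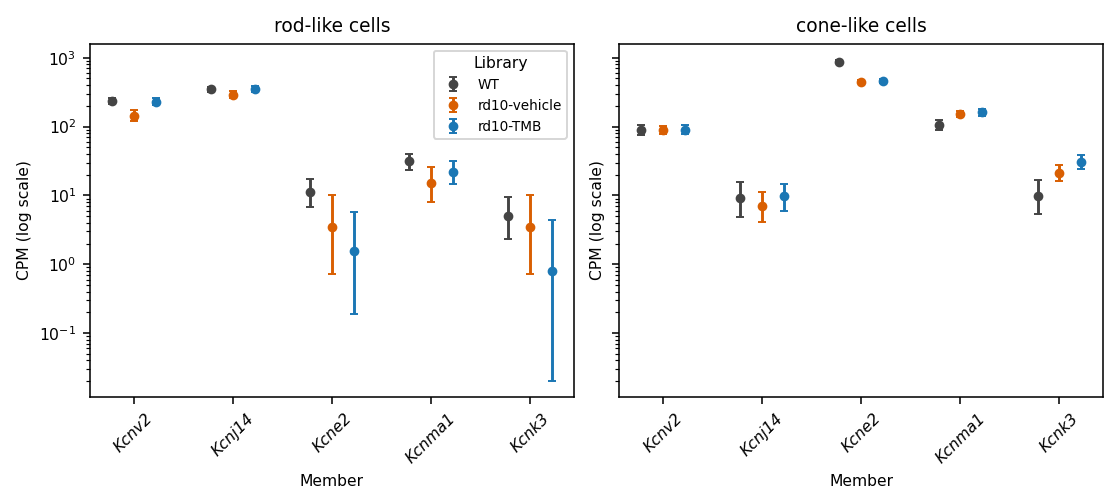
CPM on a log scale of 5 members in rod-like and cone-like cells, 1 point per library with its exact Poisson 95% interval. Kcnv2 in rod-like cells is lowest in rd10-vehicle (144 CPM), and Kcne2 in cone-like cells is highest in WT (877 CPM).

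The HCN genes Hcn2, Hcn3 and Hcn4 differed in where they were read. Hcn4 was an OFF cone bipolar gene, at 254 CPM (225 to 285), 209 (182 to 240) and 225 (197 to 257), and at or below 2 CPM in both photoreceptor classes and in rod bipolar-like cells. The OFF cone bipolar-like class joins 2 of the authors' clusters. Hcn4 measured 440, 377 and 359 CPM in cluster 8, which it helps to define, and 29.8, 4.48 and 0 CPM in cluster 7, where 0 UMIs allow up to 8.01 CPM. Hcn3 was highest in the same class, at 84.7, 84.5 and 84.4 CPM, and lower in rod bipolar-like cells at 34.6, 33.6 and 30.7 CPM. Hcn2 stayed at or below 32.4 CPM in each of the 12 classes and led in amacrine-like cells. Hcn3 had enough UMIs for both contrasts in the 3 named bipolar classes, Hcn4 in ON and OFF cone bipolar-like cells, and Hcn2 in Müller glia-like and ON cone bipolar-like cells and, for rd10-TMB over rd10-vehicle, in rod bipolar-like cells. None of them was called there, and in the rest of the 6 large classes they had too few UMIs to be called. Among their intervals the widest, that of Hcn2 in Müller glia-like cells for rd10-vehicle over WT, ran from -1.22 to 1.16 and leaves more than a 2-fold difference undetectable at this depth.

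**Figure D3:**
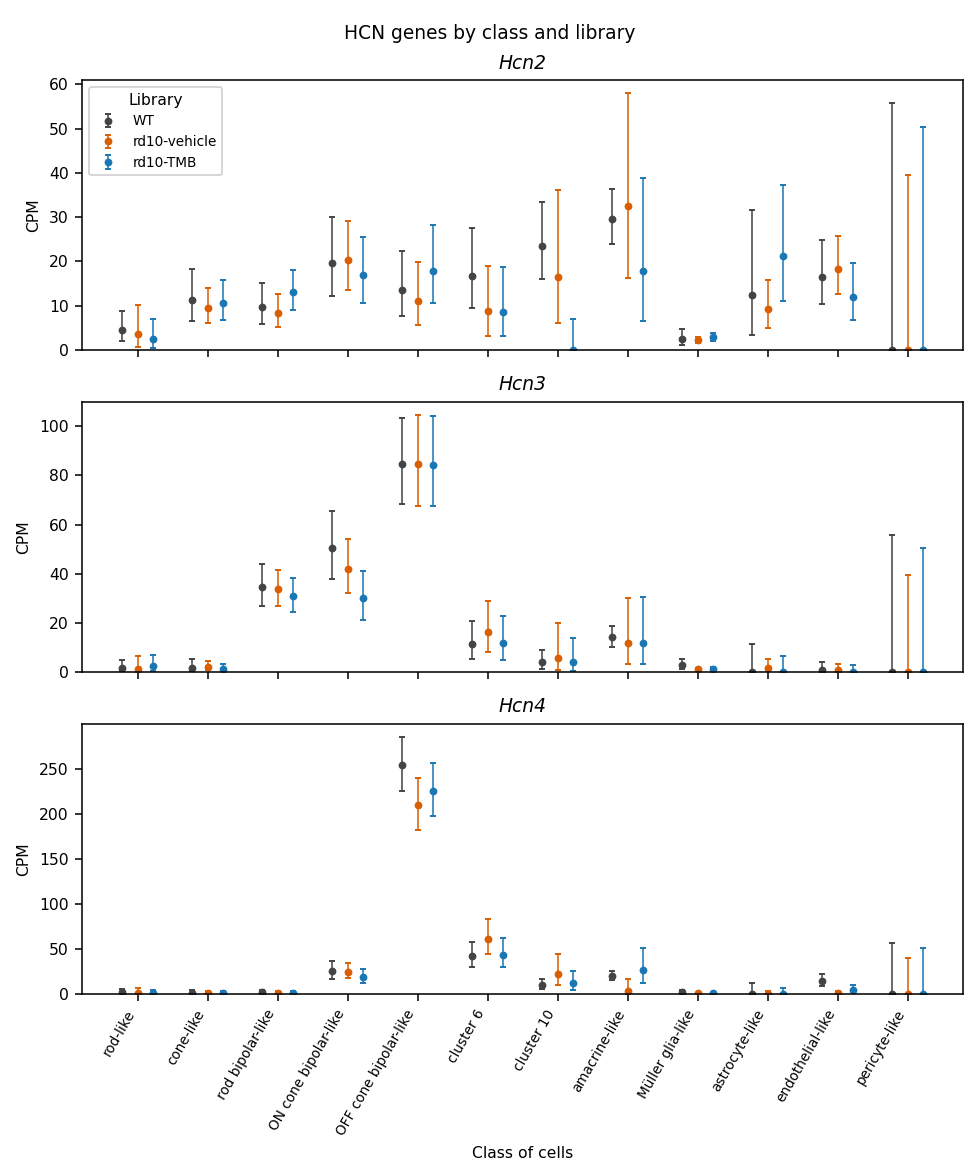
CPM of Hcn2, Hcn3 and Hcn4 in 12 classes of cells, 1 point per library with its exact Poisson 95% interval. Hcn4 and Hcn3 peak in OFF cone bipolar-like cells, and Hcn2 stays at or below 32.4 CPM.

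Kcnma1 was the leading channel gene of the bipolar classes. Rod bipolar-like cells had 910 CPM (868 to 953) in WT, 826 (791 to 861) in rd10-vehicle and 833 (799 to 869) in rd10-TMB. The cells of cluster 6, marked by Igfn1 and Vsx1, had 927 (865 to 992), 1340 (1255 to 1429) and 1270 (1187 to 1357) CPM, and those of cluster 10, marked by Cck, had 1089, 977 and 977 CPM. ON cone bipolar-like cells had 846, 714 and 651 CPM and OFF cone bipolar-like cells 454, 536 and 413 CPM. Within the OFF cone bipolar-like class, Kcnma1 measured 731, 882 and 755 CPM in cluster 7. In cluster 8 it measured 224, 254 and 210 CPM, below Hcn4. The small-conductance calcium-activated genes were far lower, with Kcnn2 at or below 59 CPM in each of the 12 classes.

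Rod bipolar-like cells also had Kcne2, at the levels given with cone-like cells. Kcnk3 measured 163, 172 and 146 CPM there, the Kv beta subunit gene Kcnab2 at 155, 106 and 98.9 CPM, and Kcnj9, the gene of a G-protein-gated inward rectifier, at 124, 115 and 116 CPM. Kcnh5, an ether-a-go-go family gene, and Kcnmb2, a BK beta subunit gene, were highest in this class, with 108, 129 and 108 CPM and 63.1, 70.7 and 66.3 CPM. Log2 ratios for rd10-vehicle over WT ran from -0.60 to 1.06, and 7 of 20 intervals were clear of 1-fold. Of the 20 with enough UMIs for rd10-vehicle over WT, 1 was called higher against 3.07% of all genes tested, and 0 lower against 1.75%. Of 22 for rd10-TMB over rd10-vehicle, 0 were called higher against 1.04%, and 1 lower against 1.71%. The member called higher was Kcnn1, a small-conductance calcium-activated gene, at 10.7 CPM (6.62 to 16.3) in WT, 22.9 (17.5 to 29.5) in rd10-vehicle and 23.0 (17.6 to 29.4) in rd10-TMB. Its log2 ratio of 1.06 (0.36 to 1.89) fell to 0.57, under the limit, with WT cells that had an Xist and no Y-linked UMI. The member called lower was Kcnip2, a Kv4 partner gene, at 24.4, 16.1 and 9.26 CPM in the 3 libraries, with a log2 ratio of -0.77 (-1.57 to -0.05) from 25 and 42 UMIs. The call was lost under 3 of 9 alternatives in which it had enough UMIs. Amacrine-like cells also carried Kcnip2, and amacrine markers in rod bipolar-like cells summed to 73.8, 29.4 and 27.8 CPM, with 1, 3 and 7 of 13 at 0. The part of these cells was not tested. For the members the median log2 ratio was -0.11 and -0.05, beside 0.02 and -0.01 over all genes.

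ON cone bipolar-like cells held more called members than any other neuronal class. Beside Kcnma1, their leading members included Kcnb2, a Kv2 family gene, at 211, 259 and 248 CPM, and Kcna5, a Kv1 gene, at 212, 215 and 200 CPM, and neither was called. Of 31 members with enough UMIs for rd10-vehicle over WT, 7 were called lower against 5.63% of all genes tested, and 2 higher against 2.56%. Among the 7 were Kcna2, Kcna4, Kcnc1, Kcnip4, Kcnmb4 and Kcnn2. Kcna2, a Kv1 gene of fast-firing neurons, measured 54.1 CPM (41.0 to 69.9) in WT, 11.2 (6.4 to 18.2) in rd10-vehicle and 10.7 (5.87 to 18) in rd10-TMB. Both rd10 libraries were well below WT, and the log2 ratio was -2.21 (-3.17 to -1.45). Kcnc1, the Kv3.1 gene, measured 82.9 (66.6 to 102), 44.1 (33.9 to 56.4) and 43.7 (33.1 to 56.6) CPM. Kcna4 measured 33.6, 18.2 and 21.5 CPM.

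Among the 12 classes, Kcna2 and Kcnc1 were highest in amacrine-like cells. Ganglion-like cells, with 37 WT, 3 rd10-vehicle and 3 rd10-TMB cells, were outside the 12. Their WT levels were 260 CPM (223 to 301) for Kcna2 and 385 (340 to 434) for Kcnc1. The amacrine markers of the ON cone bipolar-like cells are given beside these members. The 13 markers summed to 481, 476 and 416 CPM in the 3 libraries, with 0, 4 and 3 of them at 0 UMIs, and Gad1, the amacrine gene of GABA synthesis, measured 17.7, 1.40 and 0 CPM. Rod markers in these cells summed to 4260, 2944 and 3995 CPM. The parts of amacrine, ganglion and rod RNA in the members' values were not tested. With WT cells that had an Xist and no Y-linked UMI, the calls of Kcnc1, Kcnmb4 and Kcnip4 were lost, and Kcna2, Kcna4 and Kcnn2 had too few UMIs to be called, so none of these 6 calls was seen with female WT cells alone. The Kcnn2 call was also lost without the 20% of cells with the most rod markers.

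Kcng4 and Kcnk1 were the members called higher in rd10-vehicle ON cone bipolar-like cells. Kcng4, which encodes a silent subunit that joins Kv2 channels, measured 68.0 CPM (53.3 to 85.5) in WT, 125 (107 to 144) in rd10-vehicle and 103 (86.7 to 122) in rd10-TMB. The WT interval lay below both others. The log2 ratio was 0.86 (0.47 to 1.29), and the gene was called under each of the 12 alternatives that kept the 1.5-fold rule. Its highest mean level was in this class. Kcnk1, a 2-pore gene that led in Müller glia-like cells, measured 45.7 (33.8 to 60.4), 76.3 (62.6 to 92.0) and 63.6 (50.7 to 78.8) CPM. Its call was lost, at a log2 ratio of 0.58, with WT cells that had an Xist and no Y-linked UMI. Müller glia markers in the ON cone bipolar-like cells summed to 255, 678 and 572 CPM, in the same order, and their part in the Kcnk1 value was not tested.

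For rd10-TMB over rd10-vehicle in ON cone bipolar-like cells, 1 of 30 members was called higher against 1.59% of all genes tested, and 0 lower against 1.31%. The member was Kcnip4, which encodes a calcium-binding partner of Kv4 channels. It measured 44.7 CPM (33.0 to 59.3) in WT, 28.0 (20 to 38.1) in rd10-vehicle and 50.6 (39.1 to 64.3) in rd10-TMB, so that the rd10-vehicle value was the lowest. The log2 ratio was -0.67 (-1.32 to -0.04) for rd10-vehicle over WT and 0.84 (0.27 to 1.46) for rd10-TMB over rd10-vehicle. Under the 1.5-fold rule, the first call was lost under 4 of 10 alternatives, with a value of -0.04 at the nearest to 0. The second held under each of 9 that kept this rule. The median log2 ratio of the members was -0.16 and -0.07, beside -0.02 and 0.00 over all genes.

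OFF cone bipolar-like cells had Kcnma1, Kcnip4 and Hcn4 among their leading members. Kcnip4 measured 273 CPM (243 to 305), 228 (200 to 260) and 216 (188 to 246) over the class. It was split between the joined clusters in the opposite way to Hcn4, with 560, 481 and 544 CPM in cluster 7, which it helps to define, and 34.6, 21.9 and 20.6 CPM in cluster 8. Kcnh7, an ERG family gene, measured 237, 239 and 180 CPM in cluster 8 and at most 2.67 CPM in cluster 7. Of 24 members with enough UMIs for rd10-vehicle over WT, 1 was called lower against 1.97% of all genes tested, and 0 higher against 2.31%. Of 24 for rd10-TMB over rd10-vehicle, 2 were called lower against 1.56%, and 0 higher against 1.5%. Kcnd3, a Kv4 gene, measured 123 (104 to 146), 72.5 (56.7 to 91.2) and 58.6 (44.6 to 75.6) CPM, the WT interval lying above both others. Its call in rd10-vehicle over WT was lost under 4 of 12 alternatives, with a value of -0.31 at the nearest to 0. Kcnh2, the ERG1 gene, measured 54.9 (42.0 to 70.6), 69.4 (54.0 to 87.9) and 36.8 (25.9 to 50.7) CPM, and the Kv1 gene Kcna6 measured 61.2, 62.4 and 38.7 CPM. Both were called lower in rd10-TMB over rd10-vehicle, at -0.90 (-1.54 to -0.32) and -0.67 (-1.30 to -0.09), from 37 and 39 UMIs in rd10-TMB. The Kcna6 call was lost under 2 of 9 alternatives. Cluster 7 gave 45.4%, 44.9% and 37.2% of the class's UMIs in the 3 libraries. Kcnd3 measured 240, 134 and 125 CPM in cluster 7 and 26.4, 21.9 and 19 CPM in cluster 8. Kcna6 measured 93.3, 116 and 90.7 CPM in cluster 7 and 34.6, 18.3 and 7.91 CPM in cluster 8, the last from 5 UMIs. Kcnh2 measured 35.7, 78.4 and 26.7 CPM in cluster 7, the last from 10 UMIs, and 70.9, 62.1 and 42.7 CPM in cluster 8. For Kcna6 and Kcnh2 the rd10-TMB value was below the rd10-vehicle value in each cluster, with Poisson intervals that did not overlap for Kcnh2 in cluster 7 and overlapped otherwise. The part of the smaller share of cluster 7 in the class values was not tested. Over the members the median log2 ratio was 0.02 and -0.09, beside 0.00 and 0.01 over all genes.

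**Figure D4:**
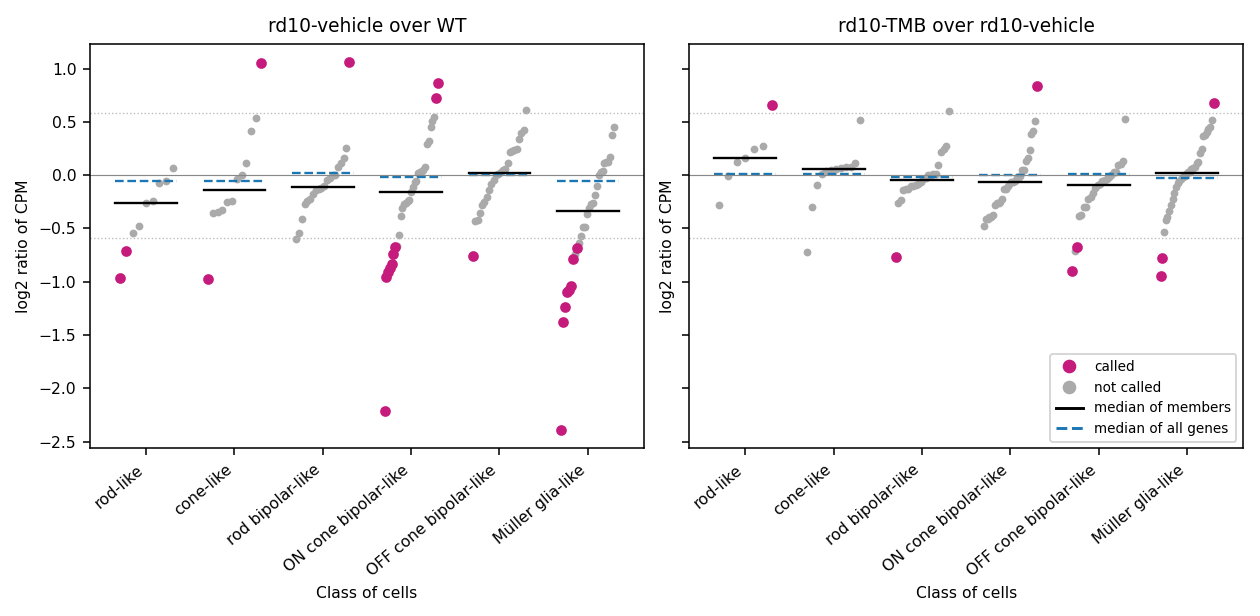
Log2 ratio of CPM for each member with at least 50 UMIs over both libraries, by class and contrast, with called members in pink and dotted lines at 1.5-fold. In the rd10-vehicle over WT panel 19 member-by-class pairs are called lower and 4 higher, and in the rd10-TMB over rd10-vehicle panel 5 lower and 3 higher.

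Among the members, Kcnk1, the gene of the 2-pore channel TWIK1, led in Müller glia-like cells. It measured 282 CPM (264 to 301) in WT, 263 (256 to 269) in rd10-vehicle and 256 (248 to 264) in rd10-TMB. The accessory subunit gene Kcne1l measured 50, 54.8 and 57.8 CPM, and neither gene was called. Of 28 members with enough UMIs for rd10-vehicle over WT, 8 were called lower against 7.21% of all genes tested, and 0 higher against 7.13%. The 8 were Kcnab2, Kcnip4, Kcnma1, Kcnd3, Kcnc1, Kcnj13, Kcnmb4 and the noncoding RNA Kcnmb4os2. Kcnab2 measured 31.0 CPM (25.3 to 37.6) in WT, 12 (10.6 to 13.6) in rd10-vehicle and 13.1 (11.4 to 15) in rd10-TMB, with a log2 ratio of -1.38 (-1.70 to -1.02). Kcnip4 measured 11.7 (8.35 to 16.1), 2.25 (1.67 to 2.97) and 3.22 (2.42 to 4.20) CPM, with -2.39 (-3.02 to -1.74). Kcnmb4, a BK beta subunit gene, measured 50.9 (43.5 to 59.2), 31.8 (29.5 to 34.2) and 36.6 (33.8 to 39.6) CPM, with -0.69 (-0.92 to -0.43).

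The other called Müller glia-like members were low, with WT levels from 4.22 CPM for the inward rectifier gene Kcnj13 to 11.4 CPM for Kcnma1. Of the 8, Kcnc1, Kcnj13, Kcnmb4 and Kcnmb4os2 lost their call under at least 1 alternative. In mean level, Kcnab2, Kcnip4, Kcnma1, Kcnd3, Kcnc1 and Kcnj13 were higher in a neuronal class than in Müller glia-like cells, and Kcnmb4 and Kcnmb4os2 in astrocyte-like cells. The 13 amacrine markers summed to 1103, 788 and 817 CPM in the Müller glia-like cells, with 0, 2 and 0 at 0 UMIs, and Gad1 measured 8.13, 0.450 and 0.358 CPM. The 12 OFF cone bipolar markers summed to 26.8, 16.6 and 16.4 CPM. Astrocyte markers summed to 1168, 1538 and 1449 CPM. The parts of neuronal and astrocyte RNA in the members' values were not tested.

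For rd10-TMB over rd10-vehicle in Müller glia-like cells, 1 of 32 members was called higher against 0.806% of all genes tested, and 2 lower against 1.85%. Kcna2 measured 33.1 CPM (27.2 to 39.9) in WT, 37.7 (35.2 to 40.3) in rd10-vehicle and 21.9 (19.7 to 24.2) in rd10-TMB, from 836 and 367 UMIs in the rd10 libraries. The rd10-TMB interval lay below both others. The log2 ratio was -0.78 (-0.96 to -0.60) and was -0.51, under the limit, after thinning to 1000 UMIs. In amacrine-like cells, the class with the highest level among the 12, Kcna2 measured 164, 168 and 116 CPM. Kcna5 measured 3.61, 2.48 and 1.25 CPM, and its call was lost with the mean over cells, where the log2 ratio was -0.26. Kcnv2 was called higher at 9.24 CPM (7.84 to 10.8) against 5.77 (4.81 to 6.86) in rd10-vehicle, in the same direction as in rod-like cells and far below the rod-like level. Rod markers summed to 970, 1343 and 1457 CPM in the Müller glia-like cells of the 3 libraries, and their part in the Kcnv2 value was not tested. The median log2 ratio of the members was -0.33 (-0.69 to 0.01) for rd10-vehicle over WT, or 0.0297 for members with at least 200 UMIs, and 0.02 for rd10-TMB over rd10-vehicle, beside -0.06 and -0.02 over all genes.

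**Figure D5:**
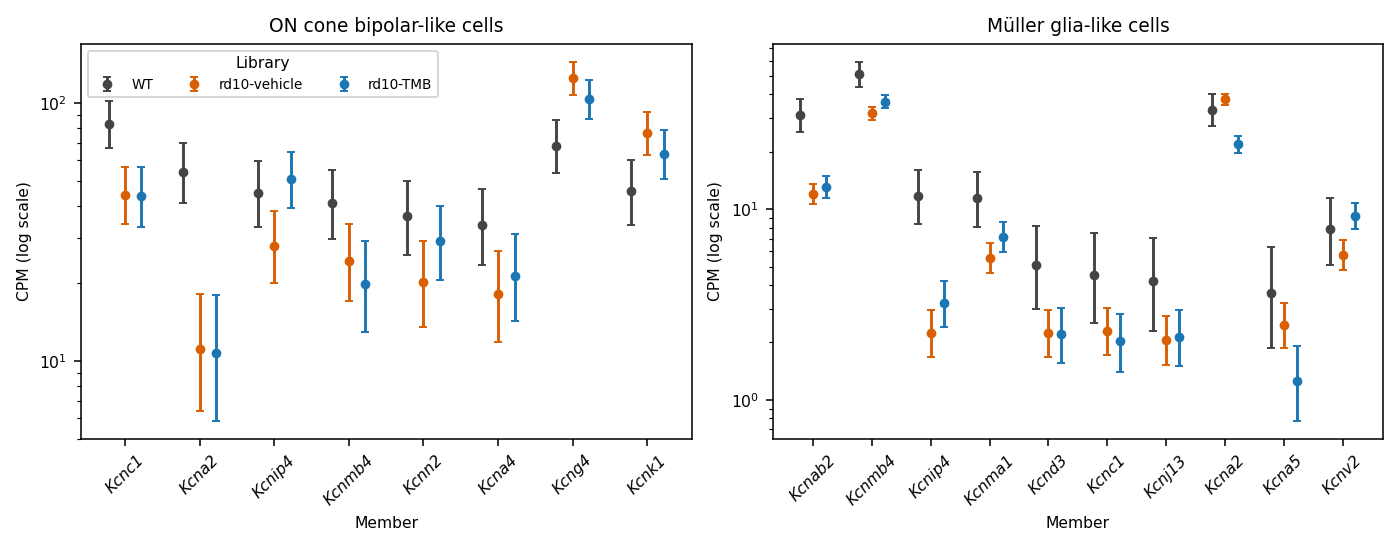
CPM on a log scale of 8 members in ON cone bipolar-like cells and 10 members in Müller glia-like cells, 1 point per library with its exact Poisson 95% interval. In ON cone bipolar-like cells Kcna2 is lower in both rd10 libraries (11.2 and 10.7 CPM) than in WT (54.1 CPM), while Kcng4 and Kcnk1 are higher, and in Müller glia-like cells Kcna2 is lowest in rd10-TMB (21.9 CPM).

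Astrocyte-like and vascular cells had a short list of their own. Astrocyte-like cells were led by Kcnmb4 at 336 CPM (276 to 406), 204 (181 to 229) and 293 (250 to 341), a mean 7.0-fold above the next class, with Kcne1l at 83.3, 76.7 and 79.9 CPM. The Kv1 gene Kcna5 measured 15.4 (5.01 to 36.0), 81.7 (67.5 to 98.1) and 62.1 (43.3 to 86.4) CPM there, the WT value resting on 5 UMIs in 20 cells. Kcnj8, the pore gene of the ATP-sensitive channel of mural cells, measured 1238 CPM (985 to 1537), 662 (508 to 849) and 602 (437 to 808) in pericyte-like cells, from 82, 62 and 44 UMIs. Endothelial-like cells had 298, 362 and 491 CPM of it, along with pericyte markers at 6045, 9453 and 9673 CPM. The accessory genes Kcne4 and Kcnmb1 were also highest in pericyte-like cells, with 90.6, 203 and 137 CPM and 90.6, 53.4 and 68.4 CPM, each value resting on fewer than 20 UMIs. No call was made in these classes, which were outside the comparisons.

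Among the 12 classes, amacrine-like cells held the highest level of 22 members, including the 4 Kv3 genes and 3 of the 6 Kv1 genes. Kcnc1 measured 302 CPM (283 to 322), 374 (312 to 445) and 333 (274 to 401), Kcna6 194, 200 and 238 CPM, and Kcna1 198, 115 and 164 CPM. The 2-pore gene Kcnk9 measured 49.1, 26.5 and 71.4 CPM and the G-protein-gated inward rectifier gene Kcnj3 37.7, 56.0 and 50.6 CPM. In the class with the next highest mean, Kcnk9 had 2 UMIs (cluster 6) and Kcnj3 12 UMIs (cluster 10), all in WT. This class joins clusters 5 and 9, which differed in several members, as Kcna6 measured 254, 437 and 433 CPM in cluster 5 and 63.8, 10.6 and 6.50 CPM in cluster 9. It had 756 WT, 105 rd10-vehicle and 83 rd10-TMB cells, and was not compared between libraries.

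The noncoding RNA Kcnq1ot1, an antisense transcript of the imprinted Kcnq1 locus, had more UMIs than any channel gene, 21613 in all. It measured 667, 512 and 487 CPM in ON cone bipolar-like cells and 327 (301 to 355), 235 (203 to 269) and 193 (170 to 219) CPM in rod-like cells, where the log2 ratios were -0.47 and -0.28. It was not called in either contrast in the 6 classes. Kcnq1 itself had 45 UMIs in the whole matrix. Cell Ranger with default parameters counts reads on the sense strand of a gene.

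Other genes of ion transport were read from lists of sodium, calcium and cyclic nucleotide-gated channels and of pumps and cotransporters. For rd10-vehicle over WT, 0 of 18 gene-by-class pairs of sodium channels were called higher and 2 lower, 1 and 9 of 55 for calcium channels, 2 and 5 of 17 for cyclic nucleotide-gated channels, and 3 and 3 of 40 for pumps and cotransporters. For rd10-TMB over rd10-vehicle the counts were 1 and 1 of 19, 1 and 2 of 51, 1 and 0 of 17, and 0 and 2 of 39. Over the same 6 classes the potassium and HCN channel genes had 4 higher and 19 lower of 124 pairs in the first contrast and 3 higher and 5 lower of 127 in the second. Of all gene-by-class pairs, 4.13% were called higher and 4.64% lower in the first contrast, and 1.21% and 1.76% in the second. In cone-like cells the calcium channel gene Cacna1h measured 44.2, 25.0 and 43.7 CPM, called lower in rd10-vehicle over WT and higher in rd10-TMB over rd10-vehicle, the order of values that Kcnv2 had in rod-like cells.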

How the data were processed

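The authors aligned the reads of 3 droplet libraries to mm10 with Cell Ranger 6.0.1 at its default settings, combined them with Cumulus, removed doublets with Scrublet, and clustered in Seurat 3.2.2 after Harmony. The deposited matrix holds the natural log of 1 plus UMIs per 10000, and the deposited cell table holds total UMI counts, the number of genes, the library and the cluster. Counts were recovered from both. All 32620606 entries were whole within 0.001 UMI, and the entries of each of 15242 cells summed to its deposited total count. Every cell had at least 500 genes, and no cell was left out.

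Clusters were called by cell type from markers, so names are rebuilt and may differ from those of the study. UMIs were summed over the cells of a class and library. CPM intervals were exact Poisson, shares exact binomial (Clopper-Pearson) and ratios exact conditional intervals, all covering counting error only, and 1 UMI was added to each count for log2 ratios. The authors tested cells as replicates, which was not done here. A level of 0 UMIs allows up to 3 UMIs per library. The capture of 3′ ends differs between genes, so CPM of different genes are only roughly comparable.

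The members and lists were chosen with earlier results of these data known. Named members were the 5 highest of each of the 6 large classes, those called, the highest of each subfamily, the HCN genes, Kcnv2 and Kcnma1, and, where none was called, the 2 highest and 2 lowest ratios. Some items this rule names are not reported here. The other members named for rod bipolar-like, amacrine-like, astrocyte-like and vascular cells, and the other ion transport genes, were chosen after their values were seen. The alternatives were other scalings, means over cells, thinning to 1000 UMIs, filters on cells and WT cells with female expression only. Pseudocounts and other UMI and fold limits were also varied. Counts of alternatives given for single calls leave out the 2-fold limit. Python 3.11.15, numpy 2.4.6, scipy 1.17.1, pandas 2.3.3 and matplotlib 3.10.9 were used, and the ratio step was tested on simulated data.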

Additional observations from a re-analysis of the deposited data

How the results depend on the processing

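Of 1194 values of 113 named member, class and contrast combinations under 13 alternatives, 1146 stayed within the interval of the value reported, 48 moved outside it, and 0 changed the sign of a call. Under the alternatives that kept the 1.5-fold rule, 13 of the 31 calls held wherever the member had enough UMIs. The other 18 were lost in at least 1. In rd10-vehicle over WT, where 4 were called higher, the count was 8 without the 20% of cells with the most rod markers, 1 with at least 200 UMIs and 2 at 2-fold. Where 19 were called lower, the count was 6 with cells thinned to 1000 UMIs, of which 4 were among the 19, 29 with at least 20 UMIs, 6 with at least 200 UMIs and 7 at 2-fold. In rd10-TMB over rd10-vehicle, where 3 were called higher, the count was 7 with the mean over cells, 6 with at least 20 UMIs and 0 at 2-fold. Where 5 were called lower, the count was 2 without the cells with the most rod markers, 1 with at least 200 UMIs, 0 at 2-fold and 1 with thinned cells, which was not among the 5. Fewer UMIs, or a higher limit on UMIs or fold, leave fewer members that can be called, and the cause of the other moves was not tested.

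The median log2 ratio of the members in Müller glia-like cells for rd10-vehicle over WT, -0.33, was 0.0297 with at least 200 UMIs, where the low members were no longer counted. The median in cone-like cells for rd10-TMB over rd10-vehicle, 0.05, was 0.0908 with a mitochondrial share of at most 10%. Amacrine-like cells held the highest level of 14 of 49 members with thinned cells and of 22 of 73 without thinning. Glial classes held that of 9 of 83 with at least 20 UMIs, in place of 4 of 73, and vascular or immune classes that of 2 of 49 with thinned cells and 3 of 54 with at least 200 UMIs, in place of 6 of 73. With the WT library only, 62 of 73 members had their highest level in the same family of classes. No paired analysis was possible because each group was 1 library.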
